A study of Homo sapiens with 24 samples.

Results

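EMP2 overexpressing ARPE-19 cells were set against vector control ARPE-19 cells under low oxygen. The comparison took 3 libraries of overexpressing (OE) cells and 3 of vector control (VC) cells, chosen by their titles, out of 24 libraries in the series, and it covered every gene counted. By the labels both lines came from ARPE-19, an immortalized line derived from human retinal pigment epithelium (RPE), and both had been stably transduced with a retrovirus, which carried EMP2 in the OE line and a control construct in the VC line. All 6 cultures were grown in ordinary air and then kept in a hypoxia chamber at 0.5% oxygen for 4 h by the labels. The remaining 18 libraries were OE and VC cells in normoxia, and wild type (WT) and EMP2 knock down (KD) cells at both oxygen levels, with 3 libraries in each of the 8 groups. OE and VC were 1 stably transduced line each as far as the labels tell, except that the labels name the OE line of the third set OE1 and that of the other sets OE2. What EMP2 did and what set the lines apart for other reasons therefore cannot be told apart. No source says whether the replicates came from separate cultures, so that p-values measure no more than the scatter of these libraries, which may be technical.

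EMP2 (epithelial membrane protein 2) is a membrane protein with several passes through the lipid bilayer, of the family that includes EMP1, EMP3 and PMP22. It binds integrins and focal adhesion kinase, affects caveolins, and in endometrial and RPE cells has been tied to HIF-1α and VEGF. HIF-1α, the product of HIF1A, is degraded in the presence of oxygen after hydroxylation by the EGLN enzymes. In low oxygen it pairs with ARNT and turns on genes for glucose uptake, glycolysis, vessel growth and pH control. The RPE is the pigmented epithelium behind the photoreceptors. It recycles retinoids, lays down Bruch's membrane and is a main source of VEGF-A for the vessels of the choroid.

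Levels are counts of a gene as CPM, that is, for each 1e6 counts of the library, scaled by the trimmed mean of M values (TMM). A difference is the log2 fold change, OE minus VC, of a quasi-likelihood fit in edgeR, and a gene was called where its p-value, adjusted by Benjamini and Hochberg's method over all genes tested, was under 0.01. Because CPM are not divided by transcript length, levels are compared between libraries and not between genes. The 6 libraries held 10796813 to 18032112 counts, and 3 counts, taken as the limit of detection, came to 0.170 to 0.248 CPM per library. OE replicate 1 stood apart. Of its uniquely mapped reads, 64.9% were counted to genes, against 90.0 to 91.5% in the other 23 libraries. In this library 67 of 9400 genes with at least 10 CPM in OE cells exceeded the mean of OE replicates 2 and 3 by more than 4-fold, and 0 fell short by as much. An exon on the opposite strand of another gene overlapped 64 of the 65 such genes with an annotation (98.5%), against 45.1% of genes at that level. The 10 CPM were a mean over all 3 OE libraries, so a gene could enter through its excess in replicate 1. SNX32 did so, with 68.1, 1.75 and 1.54 CPM in the OE libraries. The counts of 67 and 0 and the share of 98.5% are therefore partly set by that choice. The long noncoding RNA gene AL133415.1 had 947, 31.9 and 33.0 CPM in the OE libraries, against 22.2, 19.02 and 18.6 CPM in the VC libraries, and MT-ND6, encoded on the opposite strand of the mitochondrial genome to most of its genes, had 245, 12.5 and 21.1 CPM in the OE libraries, against 10.3, 7.21 and 7.72 CPM in the VC libraries. Every result below was therefore recomputed without OE replicate 1, and differences are named only where they were called in both fits unless stated. Across log2(CPM + 1) values of all libraries, the VC libraries also stood apart. They lay at one end of the first principal component, which held 47.7% of the variance, while OE, WT and KD libraries all had negative values on it, and the OE libraries stood apart on the second component. Above 10 CPM in all 6 VC libraries and below 1 CPM in all other 18 libraries were 80 genes, whereas 0 genes had that pattern for OE, WT or KD cells. Whether the VC line shared the genetic background of the other lines was not tested, and every OE minus VC value below is to be read with that. The mean of the hypoxic WT libraries is therefore given beside the main results.

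**Figure D1:**
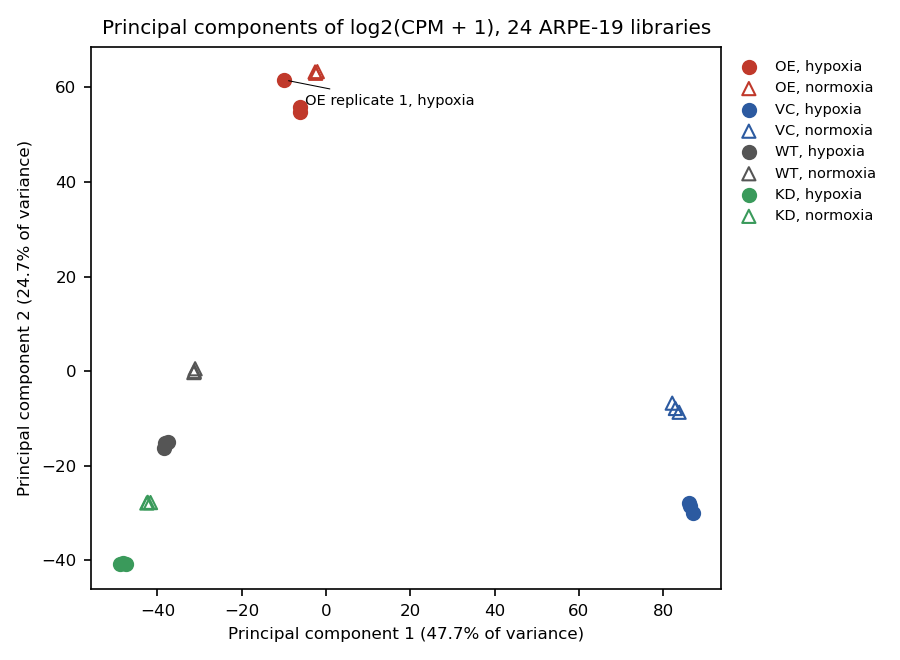
Principal component 1 (47.7% of variance, horizontal) and component 2 (24.7%, vertical) of log2(CPM + 1) in the 24 libraries. Each symbol is 1 library, filled in hypoxia and open in normoxia. The OE libraries sit at the top and the VC libraries at the far right, away from WT and KD.

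**Figure D2:**
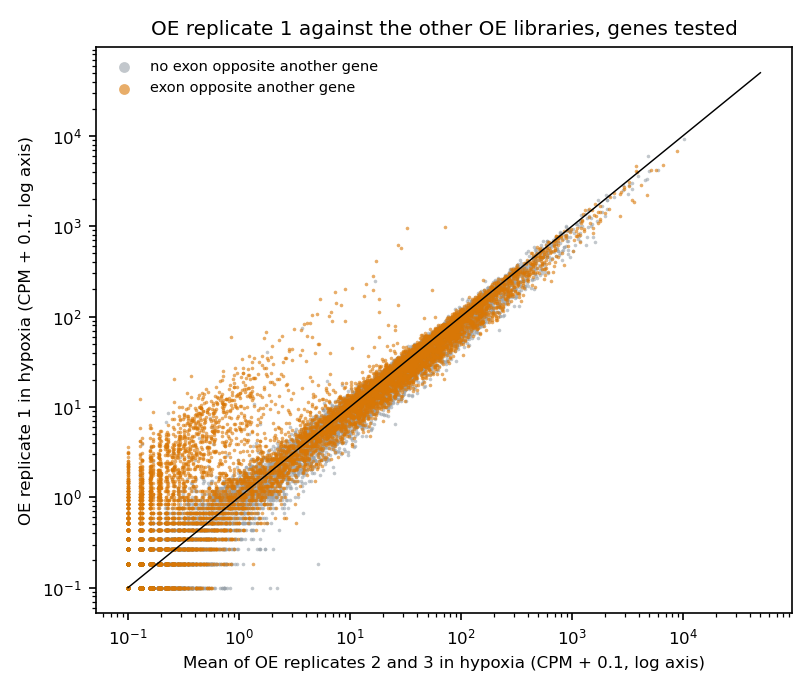
OE replicate 1 in hypoxia (vertical) against the mean of OE replicates 2 and 3 (horizontal), CPM + 0.1 on log axes, with 1 point per gene tested and a line of equality. Genes with an exon opposite an exon of another gene (orange) make up the cloud above the line, where AL133415.1 had 947 CPM in replicate 1.

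Over 24873 genes tested, 4456 were higher (17.9%) and 5046 were lower (20.3%) in OE than in VC cells in hypoxia. Without OE replicate 1, 4360 of 24595 genes were higher (17.7%) and 5055 lower (20.6%). Both fits called 8591 genes in the same direction (34.5%), 3836 higher and 4755 lower, and 0 genes in opposite directions. Among these, 180 genes were at least 10-fold higher and 1077 were at least 10-fold lower, so that the largest differences lay on the side of lower expression in OE cells. The median difference of all genes was 0.05 (-0.03 without OE replicate 1). The OE and VC libraries did not overlap for 11791 genes (47.4%). In such bulk libraries fewer cells that express a gene and less RNA of it per cell cannot be told apart. Of 911 genes called only with OE replicate 1, 620 were higher, and 70.5% of those with an annotation had an exon opposite another gene, against 39.8% of all genes tested. The WT mean lay nearer to the OE than to the VC mean, in log2(CPM + 0.5), for 2584 of the 3836 higher genes (67.4%) and for 3569 of the 4755 lower genes (75.1%).

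EMP2 itself, at chr16:10528422-10580632 on the minus strand of GRCh38, gave 478, 569.5 and 625 CPM in the OE libraries, against 36.6, 33.4 and 32.7 CPM in the VC libraries. No OE library came near a VC library, and the difference was 4.03 (standard error 0.09, adjusted p = 1.5e-24 by the edgeR test). WT cells averaged 41.2 CPM in hypoxia, close to the VC level. In normoxia EMP2 averaged 586 CPM in OE and 50.8 CPM in VC cells, about the levels seen in hypoxia. The gap was wider in hypoxia by 0.50 on the log2 scale. Counts do not separate the transgene from the gene's own transcript. Some exon sequence of EMP2 overlaps a gene on the other strand, and the difference was 4.11 without OE replicate 1. The close relatives EMP1 and EMP3 fell, by 0.92 and 0.94, and PMP22, the myelin protein of the family, was not called. EMP1 had 87.7, 90.1 and 87.0 CPM in the OE libraries, against 167, 170.5 and 165 CPM in the VC libraries. EMP3 had 60.9, 90.5 and 74.8 CPM in the OE libraries, against 154, 143 and 138 CPM in the VC libraries. Neither gene's OE libraries overlapped its VC libraries. The control genes of the study were not level between the lines: VCP, an ATPase of protein degradation, fell by 0.68, and the mitochondrial ribosomal RNA gene MT-RNR1 was -0.50 with a call that was lost without OE replicate 2 or 3 or VC replicate 1.

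**Figure D3:**
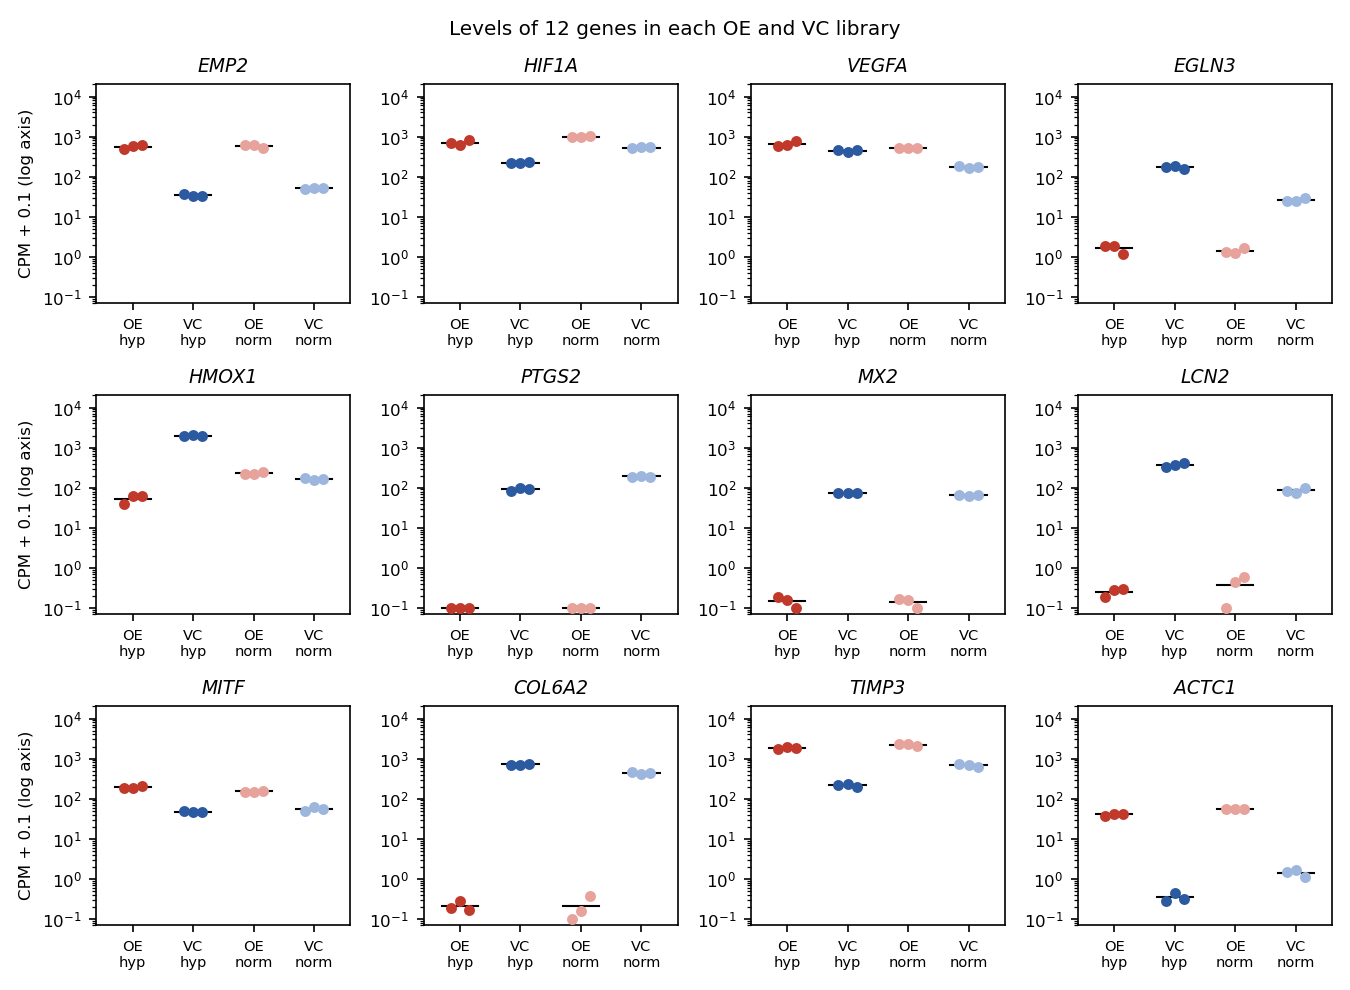
Levels of 12 genes (CPM + 0.1, log axis) in the OE and VC libraries in hypoxia (dark) and normoxia (light). Points are libraries and lines are means of 3. EMP2 is high in every OE library, HMOX1 is lower in OE than in VC libraries in hypoxia and not in normoxia, and PTGS2 has 0 counts in all 6 OE libraries.

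The largest differences were losses in OE cells. Of the 12 largest, by the fitted difference among genes with at least 10 CPM in VC cells, 9 had 0 counts in all OE libraries. For a gene at 0 the fold is a lower bound against 3 counts over the OE group, or 0.0679 CPM. PTGS2, the inducible cyclooxygenase that starts prostaglandin synthesis, had 0, 0 and 0 CPM in the OE libraries, against 83.6, 95.5 and 92.3 CPM in the VC libraries, at least 1333-fold lower in OE cells. MALL, a protein of lipid rafts, had 0, 0 and 0 CPM in the OE libraries, against 114, 114 and 110.5 CPM in the VC libraries, at least 1666-fold lower in OE. Both genes were abundant in every VC library. PRAME, a tumour antigen, was at least 1244-fold lower in OE cells, MYH14, a nonmuscle myosin heavy chain, at least 953-fold, and the interferon-inducible SLFN11 at least 528-fold. The others at 0 were the glycosyltransferase GALNT6, the protease PRSS21, the collagen COL13A1 and the G protein GNA15, with bounds of 490 to 557-fold. EEF1A2, a translation elongation factor of muscle and neurons, had 0, 0.0584 and 0.134 CPM in the OE libraries, against 923, 871 and 852 CPM in the VC libraries. The few OE counts gave a ratio of 13009 to 1 in VC over OE (95% counting interval 4451 to 63083). IGFBP4, which binds insulin-like growth factors, had 0.165, 0.0584 and 0.200 CPM in the OE libraries, against 1027, 1059 and 902 CPM in the VC libraries, a difference of -12.76 (standard error 0.24, adjusted p = 3.4e-24 by the edgeR test). All 12 genes were under 1 CPM in every OE library. They were also called lower in OE cells in normoxia. The WT mean in hypoxia was below 1 CPM for 10 of the 12, the exceptions being GALNT6 (15.8 CPM) and COL13A1 (4.93 CPM).

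Fewer genes were gained by OE cells, and by less. ACTC1, the cardiac actin, had 36.9, 41.3 and 42.4 CPM in the OE libraries, against 0.187, 0.341 and 0.212 CPM in the VC libraries, with a difference of 7.28 (standard error 0.24, adjusted p = 2.9e-20 by the edgeR test). ID4, a helix-loop-helix inhibitor of transcription downstream of BMP, had 20.2, 27.4 and 30.4 CPM in the OE libraries, against 0.249, 0.398 and 0.0708 CPM in the VC libraries, a difference of 6.66. In both genes the VC libraries were under 1 CPM and the OE libraries well above. KRT13, a keratin of stratified epithelia, differed by 6.51, with 16.2, 19.7 and 23.2 CPM in the OE libraries, against 0.187, 0.341 and 0.0708 CPM in the VC libraries. RGS7BP, SYTL5 and KRT33B were higher by 5.04, 4.66 and 4.72, and LINC02009, a long noncoding RNA, by 4.77. TRO (trophinin), higher by 4.92, was the reverse of the genes that mark the VC line: it was above 10 CPM in every OE library, below 1 CPM in every VC library and at 21.2 CPM in WT. In WT cells ACTC1 averaged 1.78, ID4 1.72 and KRT13 3.43 CPM in hypoxia, so these OE levels lay above both other lines. Of the 12 genes that the same rule named as largest increases, 3 rested mainly on OE replicate 1. KRT7-AS had 200.3, 9.69 and 8.28 CPM in the OE libraries, against 2.55, 2.21 and 1.70 CPM in the VC libraries and fell back to a difference of 2.03 without that library. AC079328.2 and AC015712.2 fell back to 2.02 and 1.66. All 3 have an exon opposite another gene. A gene must have had at least 10 CPM in all 3 libraries of a group and below 1 CPM in all 3 of the other to count as on in one line and off in the other: 4 genes were on in OE cells only, and 160 were on in VC cells only. Of the 160, 121 genes were also below 1 CPM in each WT library, and of the 4, 0 were.

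The oxygen sensing machinery was shifted between the lines. HIF1A had 683, 609 and 809 CPM in the OE libraries, against 221, 217 and 233 CPM in the VC libraries. Each OE library was above each VC library, with a difference of 1.65 (standard error 0.08, adjusted p = 4.3e-17 by the edgeR test). The WT mean was 276 CPM. In normoxia HIF1A averaged 992 CPM in OE and 532 CPM in VC cells. EPAS1, which encodes HIF-2α, went the other way. It had 169.7, 222 and 253 CPM in the OE libraries, against 463, 482 and 485 CPM in the VC libraries, and fell by 1.15. ARNT2, a partner of the HIF alpha subunits, was higher by 1.09, and CITED2, which competes with HIF-1α for p300, by 0.52. ARNT, VHL and the asparagine hydroxylase HIF1AN were not called. EGLN3, a prolyl hydroxylase that HIF itself induces, was nearly absent from OE cells. EGLN3 had 1.73, 1.81 and 1.07 CPM in the OE libraries, against 174, 180.5 and 158 CPM in the VC libraries, a difference of -6.79 (standard error 0.19, adjusted p = 1.6e-21 by the edgeR test). WT cells had 2.25 CPM, like the OE cells. EGLN2 fell by 1.05. The antisense gene HIF1A-AS3 had 0.165, 0 and 0 CPM in the OE libraries, against 20.6, 20.3 and 22.2 CPM in the VC libraries. Since no source gives the strand setting used in counting, and this gene overlaps HIF1A, its reads and those of HIF1A cannot be fully told apart. HIF1A-AS1 was called with OE replicate 1 only. Of 12 subunits, sensors and antisense genes tested, 4 were higher and 4 lower in OE cells, against 17.9% and 20.3% of all genes.

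Genes that HIF turns on were mostly lower in OE than in VC cells, although HIF1A was higher. Of 40 targets tested outside the core of glycolysis, which include glucose transporters and the hexokinase HK2, 25 were lower and 6 higher in OE than in VC cells (25 and 5 in both fits), with a median difference of -0.57 against 0.05 for all genes. Of the targets called in both fits, 25 lower and 5 higher, the WT mean was nearer to OE than to VC cells for 17. CA12, a carbonic anhydrase of the cell surface, had 0.330, 0.234 and 1.07 CPM in the OE libraries, against 43.8, 43.2 and 40.7 CPM in the VC libraries, and fell by 6.27. NDRG1, among the most strongly oxygen-regulated genes, had 375, 517 and 492 CPM in the OE libraries, against 3220.3, 3168 and 3126 CPM in the VC libraries. It fell by 2.78, and WT cells at 3916 CPM were above both lines. Targets that moved against the list were VEGFA, CA9, BNIP3, BHLHE41 and LOX, and RORA was a sixth with OE replicate 1 only. VEGFA, the main angiogenic ligand of the RPE, had 569, 633 and 771 CPM in the OE libraries, against 462, 418 and 459 CPM in the VC libraries. The lowest OE library was above the highest VC library, and the difference was 0.56 (standard error 0.09, adjusted p = 2.8e-06 by the edgeR test). In normoxia VEGFA averaged 528 CPM in OE and 174 CPM in VC cells, a wider gap. CA9, a carbonic anhydrase that serves as a standard marker of hypoxia, had 184, 282 and 247 CPM in the OE libraries, against 159, 153 and 157 CPM in the VC libraries and rose by 0.61. BNIP3, which promotes mitophagy, had 135, 156 and 169.6 CPM in the OE libraries, against 75.3, 71.8 and 77.2 CPM in the VC libraries and rose by 1.04. BHLHE41, a clock repressor, rose by 1.43 and the collagen cross-linking enzyme LOX by 0.51.

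Of 23 genes of glycolysis and lactate handling, 13 were lower and 2 higher in OE cells (12 and 1 in both fits), and the median was -0.33. HK2, SLC2A1 and SLC2A3 are counted in this list and among the HIF targets, so the lists are not separate results. The hexokinase gene HK2 had 108, 129 and 88.9 CPM in the OE libraries, against 259, 298 and 284 CPM in the VC libraries. Every OE library lay below every VC library, and HK2 fell by 1.37. The glucose transporter gene SLC2A3 had 50.5, 54.4 and 49.9 CPM in the OE libraries, against 273, 289.8 and 268 CPM in the VC libraries, and fell by 2.42. LDHB, the lactate dehydrogenase subunit of oxidative tissues, rose by 1.86 with 17.6, 15.8 and 7.08 CPM in the OE libraries, against 3.48, 4.15 and 3.40 CPM in the VC libraries. Its OE libraries spread more than the VC libraries but did not overlap them.

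Promoter sequence was read for the HIF targets because the list moved together. In the 250 bases upstream of the start site, taken from RefSeq on GRCh38.p14, the core of the hypoxia response element ACGTG (either strand) occurred for 22 of the 32 targets matched by symbol, against 21.7% of 27305 genes with such a sequence. Among targets with the motif 12 were lower and 4 higher in OE cells, and among those without it 7 were lower and 1 higher. That 1 was RORA, which was called with OE replicate 1 only. The following 150 bases end at the start site of 1 target that fell and 2 that rose, with each match in capitals and the sequence running 5′ to 3′ toward the gene. HK2 lies at chr2:74833977-74834126 (plus strand), BNIP3 at chr10:131981924-131982073 (minus strand) and CA9 at chr9:35673778-35673927 (plus strand).
HK2: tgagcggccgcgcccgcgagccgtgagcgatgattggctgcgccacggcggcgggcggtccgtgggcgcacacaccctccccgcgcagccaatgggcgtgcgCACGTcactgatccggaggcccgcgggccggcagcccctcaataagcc
BNIP3: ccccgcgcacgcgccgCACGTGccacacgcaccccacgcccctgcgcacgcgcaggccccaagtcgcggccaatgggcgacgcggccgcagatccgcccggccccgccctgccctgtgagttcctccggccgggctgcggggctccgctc
CA9: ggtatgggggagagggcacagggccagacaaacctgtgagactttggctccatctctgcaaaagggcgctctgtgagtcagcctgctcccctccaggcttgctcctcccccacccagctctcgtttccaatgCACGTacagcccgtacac
A match is a run of letters and not a measured site of binding, and it was present in the genes that fell as well as in those that rose.

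Beyond VEGFA, the angiogenic ligands split, with 7 of 18 higher and 9 lower. The fibroblast growth factors were higher. FGF2 had 268, 245 and 302 CPM in the OE libraries, against 70.8, 81.4 and 92.8 CPM in the VC libraries, a rise of 1.73. FGF1 rose by 2.15 and FGF5 by 1.74. The endothelin gene EDN1 rose by 1.20 and ANGPTL2 by 1.84. Placental growth factor and both angiopoietins were lower. PGF had 0.165, 0.234 and 0.134 CPM in the OE libraries, against 31.3, 30.2 and 28.6 CPM in the VC libraries, and fell by 7.32. ANGPT1, the agonist of the TIE2 receptor, had 0.248, 0.117 and 0.200 CPM in the OE libraries, against 7.52, 9.88 and 10.8 CPM in the VC libraries, and ANGPT2, its context-dependent antagonist, had 0.0826, 0 and 0 CPM in the OE libraries, against 2.86, 2.90 and 3.12 CPM in the VC libraries. In all 3 genes the OE libraries were near 0 and the VC libraries were not. ANGPTL4, which inhibits lipoprotein lipase, fell by 0.87, with 45.7, 92.3 and 93.5 CPM in the OE libraries, against 139.9, 132 and 153 CPM in the VC libraries. WT cells had 0.269 CPM of ANGPTL4 in hypoxia, far below both transduced lines.

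Among 14 receptors for these ligands, 4 were higher and 4 lower (4 and 3 in both fits), against 17.9% and 20.3% of all genes. NRP1, a co-receptor for VEGF and semaphorins, had 16.9, 16.9 and 17.4 CPM in the OE libraries, against 324, 358 and 350.2 CPM in the VC libraries, a difference of -4.33 (standard error 0.08, adjusted p = 2.6e-26 by the edgeR test). All OE libraries were about the same and far below the VC libraries, while WT cells averaged 215 CPM. PDGFRB, the receptor for PDGF-BB on pericytes and mesenchymal cells, had 270.0, 398 and 391.9 CPM in the OE libraries, against 53.8, 46.1 and 50.8 CPM in the VC libraries, a rise of 2.82. The hepatocyte growth factor receptor MET rose by 0.66 and the endothelin receptor EDNRA by 2.15. KDR, the main VEGF receptor, was at the limit of detection, with 0.330, 0.409 and 0.601 CPM in the OE libraries, against 0, 0 and 0.0708 CPM in the VC libraries. Both transduced lines were below WT cells, in which KDR had 6.82, 4.97 and 5.15 CPM in hypoxia. TIE1 fell by 5.48 and FGFR3 by 2.68. FGFR1 was called lower (-0.34) only with OE replicate 1. The matricellular proteins and inhibitors of vessel growth had 9 of 20 higher and 5 lower. TIMP3, a metalloproteinase inhibitor that blocks VEGF signalling and is mutated in Sorsby fundus dystrophy, had 1693, 1946 and 1806 CPM in the OE libraries, against 225, 230.1 and 197 CPM in the VC libraries, a difference of 3.06 (standard error 0.09, adjusted p = 2.1e-22 by the edgeR test). The OE libraries were the higher in each case and WT cells lay between, at 1124 CPM. CCN2 (connective tissue growth factor) had 742, 944 and 811 CPM in the OE libraries, against 179, 180.4 and 168 CPM in the VC libraries, a rise of 2.24. TNC (tenascin C) had 0.743, 0.526 and 1.07 CPM in the OE libraries, against 136, 158 and 156 CPM in the VC libraries, and fell by 7.59. The repulsive guidance gene SEMA3A fell by 3.98 and SEMA3F by 2.01, and SERPINF1, which encodes the antiangiogenic PEDF, by 2.41.

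The study had named genes of blood vessel development that rose or fell with EMP2. It chose them on KD, WT and OE samples of this series without VC cells, and its text does not say whether hypoxic libraries were among them, so they are not taken as independent evidence of a direction. Of its genes said to rise with EMP2, 37 of 48 tested were higher and 5 lower in OE than in VC cells in hypoxia, with a median of 0.98. EMP2 is itself 1 of the 37 and the largest rise, as given above. Next came MYOCD, a coactivator of smooth muscle genes, and NPPB, a natriuretic peptide. MYOCD had 8.34, 8.76 and 10.3 CPM in the OE libraries, against 0.435, 0.852 and 0.354 CPM in the VC libraries, a rise of 4.01. NPPB had 32.4, 67.9 and 82.7 CPM in the OE libraries, against 6.96, 4.54 and 3.97 CPM in the VC libraries, a rise of 3.56. In WT cells they averaged 0.0632 and 3.89 CPM. Among those lower were HEG1, SHB, ANGPTL4 and CXCL8. Of the genes said to fall with EMP2, 25 of 42 were lower (23 in both fits) and 11 were higher, with a median of -0.78. The complement gene C3 had 58.2, 89.5 and 86.5 CPM in the OE libraries, against 2382, 2615 and 2641 CPM in the VC libraries, and fell by 5.02. GPNMB, a glycoprotein of melanosomes and macrophages, had 1974, 1934 and 2239 CPM in the OE libraries, against 587, 552 and 585 CPM in the VC libraries and rose by 1.83. PTPRB, an endothelial phosphatase, and the calcium pump gene ATP2B4 were also higher, by 1.08 and 1.05.

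Eye and pigment genes were in part higher in OE than in VC cells. Of 14 RPE markers used by the study, 8 were higher and 3 lower, and their summed level was 3312 to 3890.0 CPM in OE libraries against 1769 to 1929 CPM in VC libraries. WT libraries summed to 5388 to 5696 CPM. The highest OE sum was that of OE replicate 1, in which BEST1 had 625 CPM, against 24.4 and 29.6 CPM in the other OE libraries. EFEMP1 carried more of each sum than any other marker, with 2136, 2119 and 2181 CPM in the OE libraries, against 1047, 919.6 and 1067 CPM in the VC libraries. WT libraries had 4369, 4505 and 4608 CPM of EFEMP1, above both transduced lines. MITF, the master regulator of pigment cells, had 187, 186 and 207 CPM in the OE libraries, against 48.3, 46.3 and 46.0 CPM in the VC libraries. It rose by 2.04 (standard error 0.08). OTX2, which specifies RPE, had 105, 126 and 142 CPM in the OE libraries, against 36.7, 33.2 and 36.3 CPM in the VC libraries, a rise of 1.81. RAX, an eye field gene, rose by 2.34 at a low level, with 1.40, 2.92 and 2.94 CPM in the OE libraries, against 0.497, 0.454 and 0.496 CPM in the VC libraries. All 3 separated the lines without overlap. In WT libraries OTX2 had 180, 182 and 187 CPM and RAX 19.7, 20.8 and 16.2 CPM, above both transduced lines. MITF had 132, 133 and 140 CPM there, between OE and VC cells. In all, 7 of 9 eye transcription factors were higher (6 in both fits) and 0 lower, with a median of 1.60. The pigment and visual cycle list had 7 of 17 higher and 4 lower. The melanosomal transporter SLC45A2 had 5.45, 7.36 and 5.41 CPM in the OE libraries, against 0.187, 0.454 and 0.496 CPM in the VC libraries, a rise of 3.99. GPR143, the melanosome receptor of ocular albinism, rose by 2.01 and TYR (tyrosinase) by 1.48. STRA6, the receptor for retinol binding protein, had 0.909, 1.99 and 1.27 CPM in the OE libraries, against 21.5, 22.2 and 20.04 CPM in the VC libraries, and fell by 3.88. GULP1 and the tight junction gene TJP1, which the study counts as RPE markers, fell by 2.75 and 1.17. RPE65 and BEST1, which define mature RPE, were not called. Of 5 neuroretinal markers tested 3 were lower and 0 higher.

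HOX genes, which pattern the trunk and limbs, separated OE and VC cells almost completely. All 25 HOX genes tested were below 1 CPM in every OE library, and 18 had 0 counts in all 3. Lower in OE than in VC cells were 22 of them and 0 were higher, in both fits. HOXB6 had 0, 0 and 0 CPM in the OE libraries, against 25.1, 22.9 and 24.8 CPM in the VC libraries. HOXB2 had 0, 0 and 0 CPM in the OE libraries, against 11.8, 12.4 and 9.91 CPM in the VC libraries. HOXB3 had 0, 0 and 0.0668 CPM in the OE libraries, against 48.1, 53.4 and 55.0 CPM in the VC libraries. WT means were 0.0242, 0 and 0.0725 CPM, as low as in OE cells, and among these lines in hypoxia it was the VC cells that stood apart in these 3 genes. The median of the list was -8.50 as fitted and -6.06 with genes at 0 set to their bounds. Whether reads were counted by strand is not given, so reads where a HOX gene overlaps another gene may be split between them.

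Matrix genes moved in both directions. Of 29 collagens 11 were higher and 9 lower (11 and 8 in both fits). Collagen VI was lower in OE cells: COL6A2 had 0.0826, 0.175 and 0.0668 CPM in the OE libraries, against 699.9, 711 and 734 CPM in the VC libraries, and COL6A1 had 33.3, 57.2 and 60.8 CPM in the OE libraries, against 1258, 1375 and 1448 CPM in the VC libraries. COL6A2 was near 0 in each OE library, a difference of -12.53 (standard error 0.33, adjusted p = 1.4e-17 by the edgeR test). WT cells had 0.121 CPM of COL6A2 and 195 CPM of COL6A1. COL9A3 had 0.0826, 0 and 0.0668 CPM in the OE libraries, against 102, 93.4 and 90.2 CPM in the VC libraries. The fibrillar collagen COL1A1 was higher, with 149, 303 and 261 CPM in the OE libraries, against 45.9, 43.95 and 48.8 CPM in the VC libraries, a rise of 2.36. Metalloproteinases and their inhibitors had 15 of 25 higher and 6 lower. ADAMTS2, which trims procollagen, had 6.28, 10.5 and 6.88 CPM in the OE libraries, against 0.0622, 0 and 0.142 CPM in the VC libraries, with only 3 counts in VC cells in all. WT cells had more, at 45.3 CPM. MMP14, an activator of MMP2 at the cell surface, rose by 0.67. MMP9 had 0, 0 and 0 CPM in the OE libraries, against 4.79, 4.37 and 4.18 CPM in the VC libraries, and MMP1 had 0.0826, 0.234 and 0.134 CPM in the OE libraries, against 10.2, 14.0 and 12.9 CPM in the VC libraries. Both proteases were nearly absent in OE cells. Elastic fibre genes had 10 of 22 higher and 4 lower, with FBLN2 higher by 4.62 and MGP, an inhibitor of calcification, by 3.27. LOXL4 fell by 6.56 and FBLN5 by 2.17. Integrins and laminins had 5 of 27 higher and 13 lower. The integrin αv gene ITGAV rose by 1.01 and its partner ITGB5 by 1.49, which together make the αvβ5 receptor of RPE phagocytosis. ITGB5 had 849, 1211 and 1169 CPM in the OE libraries, against 372, 369 and 408 CPM in the VC libraries. The laminin chain LAMA1 had 0.0826, 0.0584 and 0.0668 CPM in the OE libraries, against 62.1, 64.5 and 68.1 CPM in the VC libraries, a ratio of 954 to 1 in VC over OE (95% counting interval 326 to 4629).

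The plasminogen and coagulation genes were lower as a group, 8 of 10, with 1 higher. PLAT (tissue plasminogen activator) had 17.4, 24.9 and 20.6 CPM in the OE libraries, against 1151, 1089 and 1209.6 CPM in the VC libraries, and fell by 5.77. PLAU (urokinase) had 12.4, 15.3 and 11.4 CPM in the OE libraries, against 251, 268 and 254 CPM in the VC libraries, and fell by 4.30. WT cells lay between, at 219 and 129 CPM. THBD (thrombomodulin) fell by 7.42. The serine protease inhibitor TFPI2 was the exception, with 377, 454 and 629 CPM in the OE libraries, against 117, 93.5 and 129.7 CPM in the VC libraries and a rise of 2.10. Caveolar genes were lower as well, 8 of 11, with 2 higher. CAV1, the coat protein of caveolae, had 94.9, 92.7 and 90.2 CPM in the OE libraries, against 424, 447 and 476 CPM in the VC libraries, a difference of -2.28 (standard error 0.08, adjusted p = 1.4e-20 by the edgeR test). CAVIN1 had 216, 301 and 283 CPM in the OE libraries, against 1023, 993 and 942 CPM in the VC libraries, and CAVIN3 had 0 counts in every OE library against 13.1, 11.6 and 9.77 CPM in the VC libraries. PACSIN2 rose by 0.52. In the FAK and SRC set, which lies downstream of EMP2 and integrins, 11 of 20 were higher and 4 lower. The focal adhesion gene TNS1 rose by 1.63 and the scaffold gene NEDD9 by 2.17. PXN (paxillin), TNS3, BCAR1 and the SRC family kinase YES1 fell by 0.94, 0.83, 0.99 and 1.05. PTK2, which encodes FAK, was not called.

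Junction genes followed no single direction. Tight junctions had 7 of 21 higher and 9 lower. CLDN4 had 1.57, 1.99 and 2.07 CPM in the OE libraries, against 131, 129 and 135 CPM in the VC libraries, and fell by 6.11. CGNL1 (paracingulin) had 476, 509.9 and 515 CPM in the OE libraries, against 103, 106 and 103 CPM in the VC libraries and rose. Occludin (OCLN) rose by 1.33. Of 24 cadherins and desmosomal genes 14 were higher and 4 lower (13 and 4 in both fits). Against that more common direction, the desmosomal plakophilin PKP3 fell by 4.63. Of 22 keratins 8 were higher and 3 lower. The simple epithelial pair KRT8 and KRT18 fell by 1.11 and 1.34, and KRT20 had 0.0826, 0 and 0 CPM in the OE libraries, against 12.5, 13.5 and 10.8 CPM in the VC libraries. KRT13 and KRT33B rose, as given above. Keratin genes have close copies, between which reads of 50 bases may be split.

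Interferon and antigen presentation genes were lower in OE cells. Of 40 interferon-stimulated genes 25 were lower and 3 higher, with a median of -0.96. The WT mean was nearer to OE than to VC cells for 18 of those called in both fits, 25 lower and 3 higher. MX2, an antiviral GTPase, had 0.0826, 0.0584 and 0 CPM in the OE libraries, against 72.8, 75.4 and 74.4 CPM in the VC libraries, and the OE counts gave a ratio of 1641 to 1 in VC over OE (95% counting interval 454 to 13557). BST2 (tetherin) had 0.991, 0.934 and 0.801 CPM in the OE libraries, against 106, 100.5 and 104 CPM in the VC libraries, and fell by 6.82. WT cells averaged 0.0211 and 1.12 CPM, so that the high values were those of the VC line. TRIM22, IFIT5 and GBP1 were the 3 higher ones, by 1.10, 0.36 and 0.63. In the 250 upstream bases the interferon response motif, read as a pair of GAAA half-sites with 2 bases between them (either strand), occurred for 21 of 30 matched genes, against 3.71% of 27305 genes. With the motif 13 genes were lower and 2 higher, and without it 5 were lower and 0 higher. Promoters of 3 genes that fell are shown for this motif, 150 bases each up to the start site, with matches in capitals: BST2 at chr19:17405631-17405780 (minus strand), IFI27 at chr14:94110586-94110735 (plus strand) and ISG15 at chr1:1013347-1013496 (plus strand), the last 2 chosen after their values were seen.
BST2: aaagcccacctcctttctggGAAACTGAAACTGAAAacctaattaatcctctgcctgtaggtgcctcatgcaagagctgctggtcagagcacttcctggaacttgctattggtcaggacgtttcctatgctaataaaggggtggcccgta
IFI27: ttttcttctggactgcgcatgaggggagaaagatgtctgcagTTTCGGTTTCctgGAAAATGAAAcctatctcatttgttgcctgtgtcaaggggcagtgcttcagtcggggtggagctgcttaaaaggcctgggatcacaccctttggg
ISG15: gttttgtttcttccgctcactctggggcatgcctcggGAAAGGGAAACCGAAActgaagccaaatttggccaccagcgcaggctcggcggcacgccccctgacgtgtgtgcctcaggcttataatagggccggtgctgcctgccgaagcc
In BST2 and ISG15 a pair of matches overlaps. IFI27 had 0.330, 0.993 and 0.668 CPM in the OE libraries, against 67.8, 70.0 and 71.2 CPM in the VC libraries. ISG15, a ubiquitin-like modifier, had 2.81, 4.91 and 3.81 CPM in the OE libraries, against 44.5, 38.2 and 45.0 CPM in the VC libraries. The fitted differences were -6.63 and -3.44.

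Of 20 genes of MHC class I and peptide loading, 17 were lower and 1 was higher, in both fits. The WT mean was nearer to the OE than to the VC mean for 5 of these called genes. B2M, the light chain of every class I molecule, had 185, 177 and 211 CPM in the OE libraries, against 1083, 1114 and 1165 CPM in the VC libraries. The OE libraries were all far below the VC libraries, and the difference was -2.55 (standard error 0.09, adjusted p = 4.1e-20 by the edgeR test). The peptide transporter TAP2 fell by 3.04 and the immunoproteasome subunit PSMB10 by 2.58, while the trimming peptidase ERAP2 rose by 0.78. HLA genes are near-identical and their counts are uncertain one by one. Chemokines and inflammatory mediators had 19 of 28 lower and 2 higher (18 and 2 in both fits), with a median of -3.06 as fitted and -2.266 with genes at 0 at their bounds. IL1A had 0, 0 and 0 CPM in the OE libraries, against 15.4, 16.5 and 12.7 CPM in the VC libraries. CXCL8 had 11.9, 10.3 and 13.6 CPM in the OE libraries, against 54.3, 52.4 and 69.8 CPM in the VC libraries, and fell by 2.30. IL1A had 0 counts in each OE library, whereas CXCL8 was reduced but present. IL18 and CXCL16 rose by 1.96 and 1.09. In the complement list 9 of 20 were lower and 4 higher. CFB, of the alternative pathway, had 0.413, 0.117 and 0.267 CPM in the OE libraries, against 91.2, 86.7 and 104 CPM in the VC libraries, and fell by 8.51. C4A and C4B also fell, but are near-identical copies between which reads may be split.

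**Figure D4:**
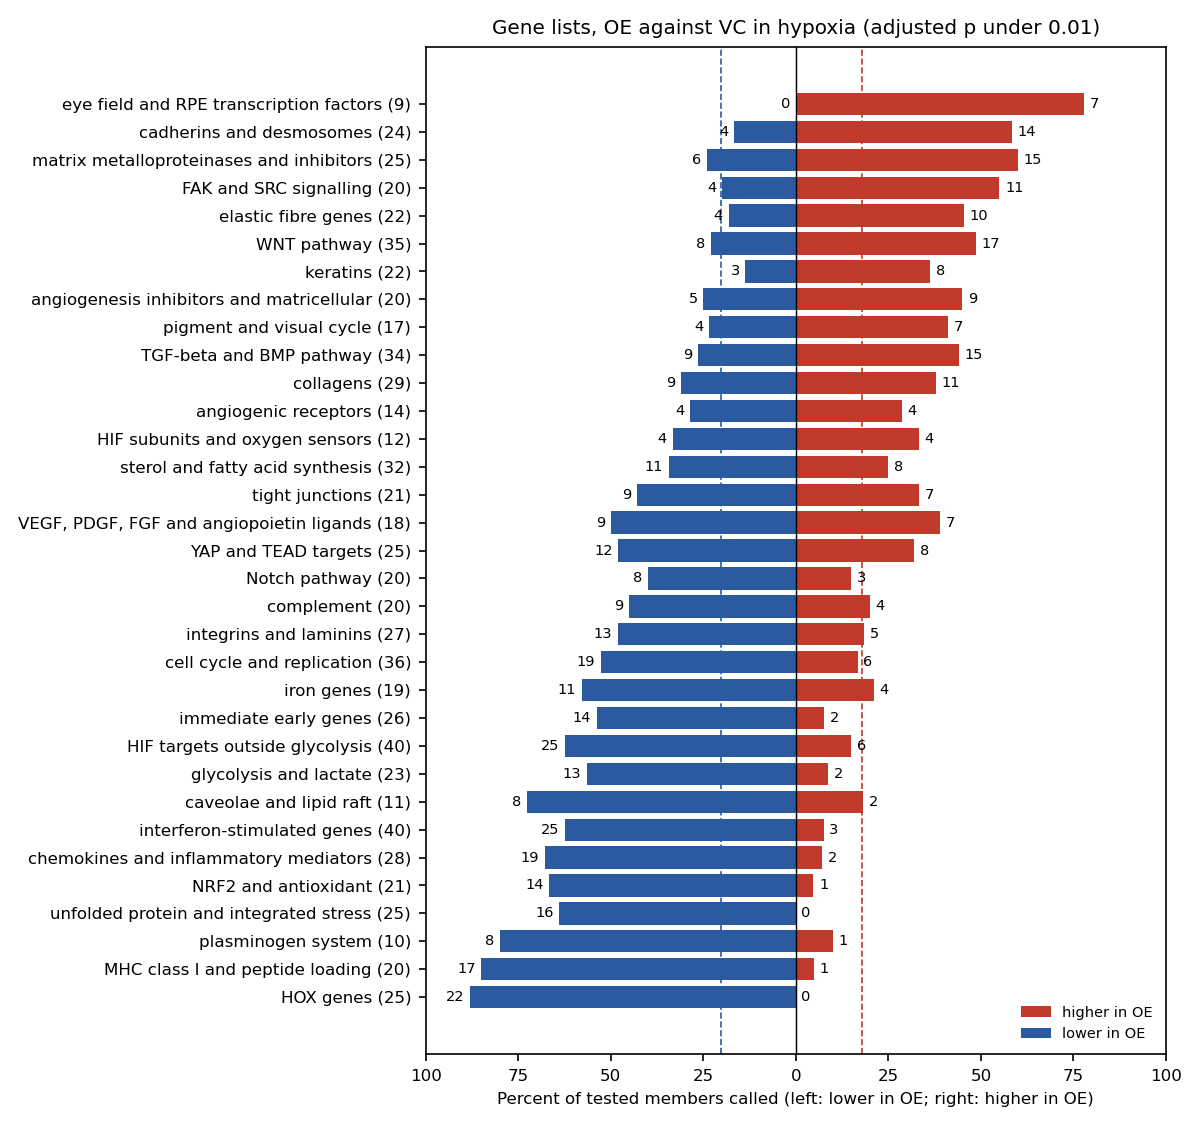
Percent of the tested members of each gene list that were higher (red, right) or lower (blue, left) in OE than in VC cells in hypoxia, at an adjusted p under 0.01, with the number of genes beside each bar and the number tested in brackets. Dashed lines mark the share of all genes, 17.9% higher and 20.3% lower. Eye transcription factors lie at the top with 7 of 9 higher, and HOX genes at the bottom with 22 of 25 lower.

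Stress and metal genes were lower in OE cells in hypoxia. HMOX1 (heme oxygenase 1), which breaks down heme, had 39.5, 60.3 and 60.2 CPM in the OE libraries, against 1956, 2030.1 and 1979.6 CPM in the VC libraries. All OE libraries were far below all VC libraries, with a difference of -5.21 (standard error 0.14, adjusted p = 2.8e-20 by the edgeR test). In normoxia HMOX1 averaged 229 CPM in OE and 163 CPM in VC cells, and WT cells in hypoxia had 147 CPM. Of 21 NRF2 and antioxidant genes 14 were lower and 1 higher. SLC7A11, the cystine transporter, had 6.53, 6.25 and 6.34 CPM in the OE libraries, against 37.9, 54.5 and 55.7 CPM in the VC libraries, and fell by 2.95, and glutathione reductase (GSR) rose by 0.57. Iron genes had 11 of 19 lower and 4 higher. LCN2 (lipocalin 2), which binds bacterial siderophores, had 0.0826, 0.175 and 0.200 CPM in the OE libraries, against 325, 358 and 401 CPM in the VC libraries, and fell by 11.09. The ferroxidase gene HEPH had 169.9, 192 and 192 CPM in the OE libraries, against 54.4, 53.1 and 57.6 CPM in the VC libraries, a rise of 1.75. HEPH was nearly absent from WT cells, at 0.323 CPM. Of 7 genes of metallothioneins and metal response 6 were lower and 0 higher. MT1X had 5.62, 7.13 and 4.94 CPM in the OE libraries, against 34.5, 37.4 and 31.2 CPM in the VC libraries and MT1E had 64.7, 103 and 84.4 CPM in the OE libraries, against 257, 262 and 265 CPM in the VC libraries. The WT means of 28.3 and 252 CPM were near those of VC cells, though MT1 genes are close copies of one another. In the unfolded protein and integrated stress list 16 of 25 were lower (15 in both fits) and 0 higher.

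To ask which of these differences depended on oxygen, the OE minus VC difference in hypoxia was set against that in normoxia. Among the 3836 increases called in hypoxia, 2944 were increases in normoxia too and 19 were decreases there. Among the 4755 decreases, 3650 were shared and 33 were increases in normoxia. The interaction was called with and without OE replicate 1 for 1219 genes (4.9%), for 562 with a larger and for 657 with a smaller OE minus VC difference in hypoxia. The largest shifts were negative. TNFSF15, an antiangiogenic cytokine, had 0.248, 0.117 and 0.0668 CPM in the OE libraries, against 41.0, 48.6 and 45.0 CPM in the VC libraries, against 1.12 CPM in OE and 6.78 CPM in VC cells in normoxia, an interaction of -5.75. HMOX1 had -5.71. In both genes the VC mean was far higher in hypoxia than in normoxia while the OE mean was lower. For TNFSF15 the OE libraries in normoxia had 1.55, 1.65 and 0.139 CPM, so the third was near 0 at both oxygen levels. MICB, a stress ligand of natural killer cells, had 0.165, 0.117 and 0.200 CPM in the OE libraries, against 45.3, 45.3 and 48.4 CPM in the VC libraries, with 0.258 and 5.47 CPM in OE and VC cells in normoxia (-3.81). TREM1, an amplifier of inflammation, shifted by -3.03. The largest positive shifts were those of LINC02009 (3.07), PPARGC1A (3.06), ID4 (2.97) and ADAMTS2 (2.88). PPARGC1A, a coactivator of mitochondrial genes, had 22.7, 20.4 and 18.8 CPM in the OE libraries, against 4.48, 4.09 and 4.04 CPM in the VC libraries in hypoxia. In normoxia it averaged 6.94 CPM in OE and 11.8 CPM in VC cells, and the lines were called in opposite order at the 2 oxygen levels.

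Of the lists read here, HIF targets held the most interactions called in both fits, 31 of 40, against 4.9% of all genes. Of these 30 were negative and 1 was positive, that is, the hypoxic level of OE relative to VC cells was below the normoxic one. EGLN3 averaged 1.31 CPM in OE and 26.3 CPM in VC cells in normoxia and had an interaction of -2.46. NDRG1 averaged 80.2 and 167 CPM in OE and VC cells in normoxia, with an interaction of -1.73. For CA9 it was -1.78 and for VEGFA -1.04, and both genes were already high in OE cells in normoxia. CA9 averaged 192 CPM there, against 36.6 CPM in VC cells. ANGPTL4 turned round between oxygen levels, with 112 CPM in OE and 56.7 CPM in VC cells in normoxia (-1.85). Glycolytic genes had 11 negative and 1 positive interactions among 23, the positive one being SLC2A3 (0.49). NRF2 and antioxidant genes had 9 negative and 0 positive among 21, and metallothioneins 5 negative and 0 positive among 7. Metalloproteinases had 8 positive and 0 negative among 25, the WNT pathway 9 positive and 0 negative among 35, and TGF-beta and BMP genes 11 positive and 3 negative among 34. The hypoxic OE and VC libraries enter both the difference in hypoxia and the interaction, so these are not independent observations. HOX and MHC class I genes had 0 interactions called in both fits, although 22 of 25 and 17 of 20 were lower in OE cells in hypoxia.

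**Figure D5:**
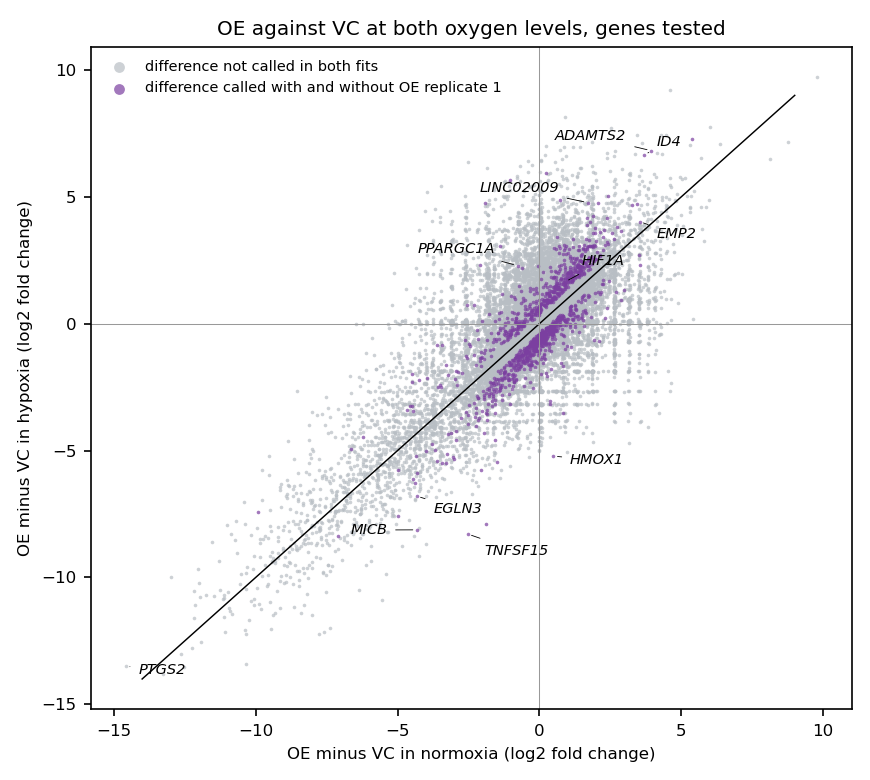
OE minus VC log2 fold change in hypoxia (vertical) against normoxia (horizontal), 1 point per gene tested, with a line of equality. Purple points are the 1219 genes whose difference was called between oxygen levels with and without OE replicate 1. TNFSF15 and HMOX1 lie far below the line and PPARGC1A, ID4 and ADAMTS2 above it.

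Pathway genes downstream of adhesion and growth factors were also split between the lines. Among TGF-beta and BMP genes 15 of 34 were higher and 9 lower (15 and 8 in both fits). TGFB2 rose by 1.28 with 337, 391 and 468 CPM in the OE libraries, against 161, 167 and 164 CPM in the VC libraries, and TGFB1 fell by 1.38 with 127, 204 and 250.1 CPM in the OE libraries, against 557, 525 and 431 CPM in the VC libraries. The BMP antagonist NOG fell by 3.43, and the activin subunit INHBA by 3.44. In the WNT list 17 of 35 were higher and 8 lower (17 and 7 in both fits). Against that more common direction, the receptors LRP5 and FZD7 fell by 1.68 and 1.35. In the Notch list 3 of 20 were higher and 8 lower. NOTCH3 had 0.248, 0.0584 and 0 CPM in the OE libraries, against 41.2, 51.5 and 44.6 CPM in the VC libraries, and fell by 8.86, and its WT mean was 0.0242 CPM. YAP and TEAD targets had 8 of 25 higher and 12 lower. ANKRD1, a YAP target and muscle ankyrin repeat gene, had 207, 199.7 and 193 CPM in the OE libraries, against 18.8, 20.05 and 21.2 CPM in the VC libraries, a rise of 3.32. Immediate early genes had 14 of 26 lower and 2 higher. FOSL1 fell by 2.21, and the ERK phosphatase genes DUSP5 and DUSP6 fell by 2.67 and 2.49. DUSP6 had 17.2, 18.6 and 21.5 CPM in the OE libraries, against 105, 109 and 108 CPM in the VC libraries. JUNB and FOSB rose by 1.08 and 1.69.

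Markers of other cell types were read because the lines differed so widely. Endothelial markers summed to 11.3 to 19.5 CPM in OE libraries against 94.3 to 98.3 CPM in VC libraries, with 5 of 11 lower and 1 higher. WT libraries summed to 77.8 to 83.0 CPM, nearer to VC than to OE libraries. EGFL7 carried much of the gap between OE and VC, with 1.65, 3.39 and 2.80 CPM in the OE libraries, against 45.6, 42.1 and 43.8 CPM in the VC libraries. In WT libraries EGFL7 had 2.53, 2.29 and 2.25 CPM, and ROBO4 carried most of the WT sum, at 63.4, 61.6 and 64.8 CPM. ROBO4 had 8.34, 12.6 and 14.3 CPM in the OE libraries, against 22.6, 25.5 and 25.6 CPM in the VC libraries. PECAM1, a defining endothelial marker, was at 0, 0.0584 and 0 CPM in OE libraries and at 1.37, 1.76 and 0.850 CPM in VC libraries. Mesenchymal markers summed to 755 to 1039 CPM in OE libraries against 193 to 219 CPM in VC libraries and to 798 to 829 CPM in WT libraries, with 6 of 12 higher and 1 lower (6 and 0 in both fits). Markers of mammary and basal epithelium summed to 54.3 to 78.8 CPM in OE libraries against 13.1 to 23.7 CPM in VC libraries, with 2 of 10 higher and 2 lower, near the share of all genes. TP63, the regulator of basal epithelia, carried most of the OE sum, with 49.1, 54.6 and 61.9 CPM in the OE libraries, against 3.61, 3.92 and 3.54 CPM in the VC libraries. GATA3 had 0, 0.117 and 0.134 CPM in the OE libraries, against 2.98, 4.15 and 3.19 CPM in the VC libraries, and EPCAM had 0 counts in each OE library. KRT5 followed the set and not the line. It had 0.0826, 0.0584 and 9.95 CPM in the OE libraries, against 0, 0 and 9.99 CPM in the VC libraries and 0.0632, 0 and 9.42 CPM in the WT libraries. These marker levels stand beside the results above, and their part in the results above was not tested. The OE against VC difference, EMP2 included, is a difference between separately transduced lines, and WT cells were at or near the OE level in HOXB6, MX2, BST2 and COL6A2. That did not hold in every list. Of the plasminogen genes called in both fits, 8 lower and 1 higher, the WT mean was nearer to OE than to VC cells for 1. Of the 6 metallothionein and metal response genes called lower in both fits, it was nearer to OE cells for 2.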

How the data were processed

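RNA was sequenced from 24 ARPE-19 libraries as single reads of 50 bases after KAPA RNA HyperPrep with RiboErase. The authors made the count values, whole numbers of reads per gene, by mapping with STAR (2.27a in the alignment report) to GRCh38. That report names Ensembl 98 and the paper's methods the latest UCSC set, and whether reads were counted by strand is not given in the sources used here. The other values taken from the deposited files were the uniquely mapped reads per library. The authors' TMM-scaled table was not used, since the same counts were deposited unscaled. Per the labels, the submitters' processing notes also name bcl2fastq 2.17, Partek, DESeq2 1.26.0 and edgeR.

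Here counts were fitted in edgeR 4.0.16 (R 4.3.3; TMM, robust quasi-likelihood, 8 group means, all 24 libraries, genes with at least 10 counts in total), with Benjamini-Hochberg adjusted p under 0.01. The 6 compared libraries held 10796813 to 18032112 counts, and the full set up to 19779450. CPM used the TMM-scaled library size. Counting intervals (95%) and the limit of 3 counts cover counting error only. The interaction was (OE minus VC in hypoxia) minus (OE minus VC in normoxia). Gene positions, and exons opposite another gene, came from GENCODE 44, and promoters from RefSeq (GRCh38.p14). By the labels a replicate number is that of a set across all lines, and same-numbered OE and VC libraries deviated together only weakly (r = -0.11, 0.04 and 0.11 across genes). The set was left out of the main fit and entered as a block in an alternative. No 2 hypoxic OE and no 2 hypoxic VC libraries agreed within sampling noise. Tested on simulated data, the fit recovered 168 of 200 genes changed 2-fold in hypoxia OE against VC, with 1 false call over 21852 genes, and 157 without OE replicate 1. Simulated libraries were drawn from the mean of the hypoxic WT libraries with the fitted spread of each gene, and only the 200 genes differed. OE replicate 1 carried no excess there and the lines had no other difference, so the 1 false call covers neither.

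Gene lists and the rule for named genes were chosen with earlier results of these data known. Named were EMP2, HIF1A, VEGFA and the control genes; the 12 largest changes each way among genes called with and without OE replicate 1, at 10 CPM or more in the higher group and without overlap; the up to 3 most changed members of each list, members against their list's majority and groups of 5 or fewer; the 6 largest excesses of OE replicate 1; and the 4 largest interactions each way. Members named outside this rule (PMP22, ARNT, VHL, HIF1AN, PTK2, RPE65, BEST1, IFI27, ISG15, MCM2, MCM5, LSS, MVD, KRT5, EFEMP1) were chosen after their values were seen. Alternatives changed the scaling, filter, threshold, genes, libraries, replicate block and test (limma-voom 3.58.1, DESeq2 1.42.0). Genes on the Y chromosome were in the fit but are not reported. Some genes that the rule names are not reported here.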

Additional observations from a re-analysis of the deposited data

Results flagged for a closer look

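For 73 of the named genes the OE minus VC difference in hypoxia was tested against that in normoxia as an interaction (edgeR), and was called with and without OE replicate 1. Values are the log2 difference in hypoxia minus that in normoxia. The part of the line-specific background in each was not tested.

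Negative values, that is, a lower OE minus VC difference in hypoxia, came from HIF targets and sensors, EGLN3 (-2.46), EPAS1 (-0.56), CA12 (-1.89), CA9 (-1.78), ANGPTL4 (-1.85), NDRG1 (-1.73), LOX (-1.02) and VEGFA (-1.04). Genes of heme, metals and inflammation were HMOX1 (-5.71), MT1E (-1.34), MT1F (-2.34), MT1X (-2.32), TNFSF15 (-5.75), MICB (-3.81), TREM1 (-3.03) and C3 (-1.03). Matrix, junction and vessel genes were TNC (-2.60), COL6A1 (-0.95), FBLN5 (-1.36), CAV1 (-0.54), CLDN4 (-1.65), PLAT (-0.78), TIE1 (-2.19), ROBO4 (-0.89), PTPRB (-0.46) and SHB (-1.06). Signalling and cell cycle genes were SMAD3 (-0.78), DUSP5 (-1.25), AURKA (-0.68) and UBE2C (-0.87).

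Positive values came from EMP2 and HIF1A, EMP2 (0.50) and HIF1A (0.75), and from pigment and eye genes, MITF (0.58), TYR (1.11), GPR143 (0.83), SLC45A2 (2.22) and GPNMB (0.53). Genes of growth factors, BMP and WNT were ID1 (0.85), ID4 (2.97), NOG (1.03), TGFB2 (0.45), TGFBR2 (0.45), LTBP1 (1.04), FZD7 (0.76), FZD8 (1.02), PDGFRB (0.78) and ANGPTL2 (0.73). Matrix, junction and vessel genes were ADAMTS2 (2.88), TIMP3 (1.35), CGNL1 (0.55), CCBE1 (1.31), HEG1 (0.56), THBD (2.50) and MYLK (0.61). Muscle, keratin and other genes were ACTC1 (1.89), ANKRD1 (2.14), KRT23 (1.96), KRT33B (1.27), RGS7BP (2.61), SYTL5 (1.38), LINC02009 (3.07) and PPARGC1A (3.06). Replication genes were MCM3 (0.76), MCM7 (0.37), PCNA (0.54), CCNA2 (0.58) and E2F2 (1.44), and those of lipid synthesis, glucose uptake and interferon were ACAT2 (0.72), FDFT1 (0.48), SLC2A3 (0.49), GBP1 (0.97), IFIT5 (0.51) and TRIM22 (0.43). KRT23 was at 3.65 CPM in OE and 1.76 CPM in VC cells in hypoxia, which is low, and its call was lost without OE replicate 2 or 3 or VC replicate 2 or 3.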

How the results depend on the processing

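The counts of genes higher and lower in OE cells, 4456 and 5046, stayed within 1.5 times under 18 of the 20 alternatives for higher and 19 of 20 for lower genes. With genes that have an exon opposite another gene removed, which left 15017 genes to test, they were 2632 and 2997. With the 6 compared libraries alone the higher genes were 2688. Leaving out 1 library at a time gave 3697 to 4616 higher and 4616 to 5055 lower genes. The interaction counts of 601 larger and 676 smaller became 937 and 941 without OE replicate 1. AC010761.1 and SNX32, at 4.61 and 3.73 with OE replicate 1, changed sign without it (-0.086 and -0.099), also without it and with the replicate block (-0.11 and -0.21), with the other 5 libraries alone (-0.066 and -0.082) and in DESeq2 (-0.096 and -0.12). Over libraries left out in turn, AC010761.1 ranged from -0.086 to 5.203 and SNX32 from -0.099 to 4.32. The replicate block gave 4372 higher and 5107 lower genes and 637 and 748 interactions. It ended the calls of 5 named genes (MVK, WNT11, AC010761.1, SNX32 and AP003352.1) and of no other. Of 285 named genes called, 229 were neither lost nor reversed under any alternative that tested them, and 56 were under at least 1. Not every alternative tested every named gene. With genes that have an exon opposite another gene removed, 173 named genes were unchanged, 1 was weaker and the rest were not tested. The changed threshold was not read gene by gene. The depth of OE replicate 1, the lowest of the 6, limits genes near 0.248 CPM. The cause of these shifts was not tested beyond fewer genes and libraries.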

Other observations

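Cell cycle and replication genes were more often lower than higher in OE cells in hypoxia. Of 36 tested 19 were lower and 6 higher in OE than in VC cells (18 and 4 in both fits), against 20.3% and 17.9% of all genes. UBE2C, a ubiquitin-conjugating enzyme of mitotic exit, had 16.5, 22.1 and 17.0 CPM in the OE libraries, against 73.1, 79.1 and 73.4 CPM in the VC libraries and fell by 2.01. The mitotic kinase AURKA fell by 1.43 and the spindle checkpoint kinase BUB1B by 1.32. Replication genes went both ways. PCNA, the sliding clamp of DNA polymerase, had 78.3, 79.8 and 77.0 CPM in the OE libraries, against 61.1, 55.0 and 60.6 CPM in the VC libraries and rose by 0.41, and MCM7 of the replicative helicase rose by 0.35, whereas MCM2 and MCM5 of the same helicase fell by 0.44 and 0.52. CCNA2 (cyclin A2) rose by 0.87. The OE and VC libraries did not overlap for UBE2C or PCNA.

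Sterol and fatty acid synthesis had 8 of 32 higher and 11 lower in OE cells. The cholesterol synthesis enzymes were divided: SC5D and MSMO1 were higher, by 0.95 and 0.87, and LSS and MVD fell by 0.67 and 0.87. In the unfolded protein and integrated stress list the glutathione-degrading enzyme CHAC1 had 0.661, 0.701 and 0.734 CPM in the OE libraries, against 3.11, 3.18 and 3.26 CPM in the VC libraries, and GDF15, a cytokine of cell stress, had 0.413, 0.175 and 1.00 CPM in the OE libraries, against 6.90, 6.53 and 5.59 CPM in the VC libraries. Both were low, and fell by 2.17 and 3.58. Melanocyte markers had 1 of 6 higher and 0 lower, with sums of 17.1 to 18.2 CPM in OE libraries against 10.96 to 12.2 CPM in VC libraries and 46.3 to 52.7 CPM in WT libraries. Immune markers had 1 of 4 higher and 1 lower. CSF1R, the receptor of a macrophage growth factor, rose by 2.44, and CD14 had 0, 0 and 0 CPM in the OE libraries, against 1.99, 1.93 and 2.34 CPM in the VC libraries. Neuronal markers had 1 of 5 higher and 2 lower, and summed to 14.8 to 16.8 CPM in OE libraries against 56.8 to 62.4 CPM in VC libraries. CALB1 (calbindin) carried most of the VC sum, with 0, 0 and 0.534 CPM in the OE libraries, against 41.2, 47.8 and 46.0 CPM in the VC libraries. Of 15 mitochondrially encoded genes 1 was higher and 1 lower, and MT-ND6, the higher one, was not called without OE replicate 1.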
